A study of Mus musculus with 8 samples.

Results

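The 36 genes described here make and copy DNA: they build replication origins, unwind and copy the double helix, and supply deoxynucleotides. They were listed by symbol, with earlier results of these data known, and all 36 were found among the 20240 gene entries used. They were read in poly(A) RNA of whole C57BL/6 mouse kidneys, in 8 libraries with 2 in each of 4 groups. PKD_FP kidneys came from mice with autosomal dominant polycystic kidney disease given FP. FP stands for flavopiridol, per the series design, a drug that inhibits several cyclin-dependent kinases. PKD_DMSO kidneys came from polycystic mice given the vehicle DMSO, WT_FP kidneys from wild-type mice given flavopiridol, and WT_DMSO kidneys from wild-type mice given DMSO. Polycystic kidney disease fills the kidney with fluid-filled cysts lined by tubule epithelium. The labels used here name no mutated gene, allele, Cre driver, dose, age or sex. Nor do they say that replicates were separate animals, and p-values then cover just the spread between these libraries, which may be technical.

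Before a cell copies its DNA, the origin recognition complex (Orc1 and Orc6 among its subunits), Cdc6 and Cdt1 load the ring of Mcm2, Mcm3, Mcm4, Mcm5, Mcm6 and Mcm7 onto DNA, a step called licensing that geminin (Gmnn) blocks by binding Cdt1. Cdc45 and the GINS complex (Gins1 and Gins2 among its subunits), helped by Mcm10, turn the ring into an active helicase. Primase (Prim1) and polymerase alpha (Pola1) start new strands, the clamp loader (Rfc3, Rfc4, Rfc5) places the sliding clamp (Pcna), and polymerases delta (Pold1) and epsilon (Pole) extend them. Fen1 trims and Lig1 joins the short fragments of the lagging strand. Chaf1a and Chaf1b deposit histones on the new DNA, Uhrf1 brings maintenance methylation to it, Ung removes uracil from it and Brca1 takes part in its repair by recombination. Rrm1 and Rrm2 form ribonucleotide reductase, Tyms makes thymidylate and Tk1 salvages thymidine. E2f1 and E2f2 are transcription factors that activate many of these genes when a cell enters the cycle. Most cells of an adult kidney are at rest and use this machinery little.

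Levels are FPKM, a read density scaled to transcript length and library size, so they are per length and can be set beside each other. Pcna had the highest level of the 36 genes in every library, from 79.8 to 82.6 FPKM in PKD_FP kidneys and 60.6 to 68.3 FPKM in PKD_DMSO kidneys, against 43.6 to 51.5 FPKM in WT_FP kidneys and 45.9 to 52.9 FPKM in WT_DMSO kidneys. Orc1, which encodes the largest subunit of the origin recognition complex, was at the low end, with 0.52 and 0.61 FPKM in PKD_FP kidneys, 0.46 and 0.38 FPKM in PKD_DMSO kidneys, 0.38 and 0.44 FPKM in WT_FP kidneys and 0.30 and 0.16 FPKM in WT_DMSO kidneys. Orc1 and Cdc6 did not reach 1 FPKM in 2 libraries, the minimum used for testing, and are given as levels only. Brca1 reached it only through the PKD_FP libraries, where it was high, so its passing the filter is not independent of the group. The other 33 genes also passed, which leaves 34 tested.

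**Figure D1:**
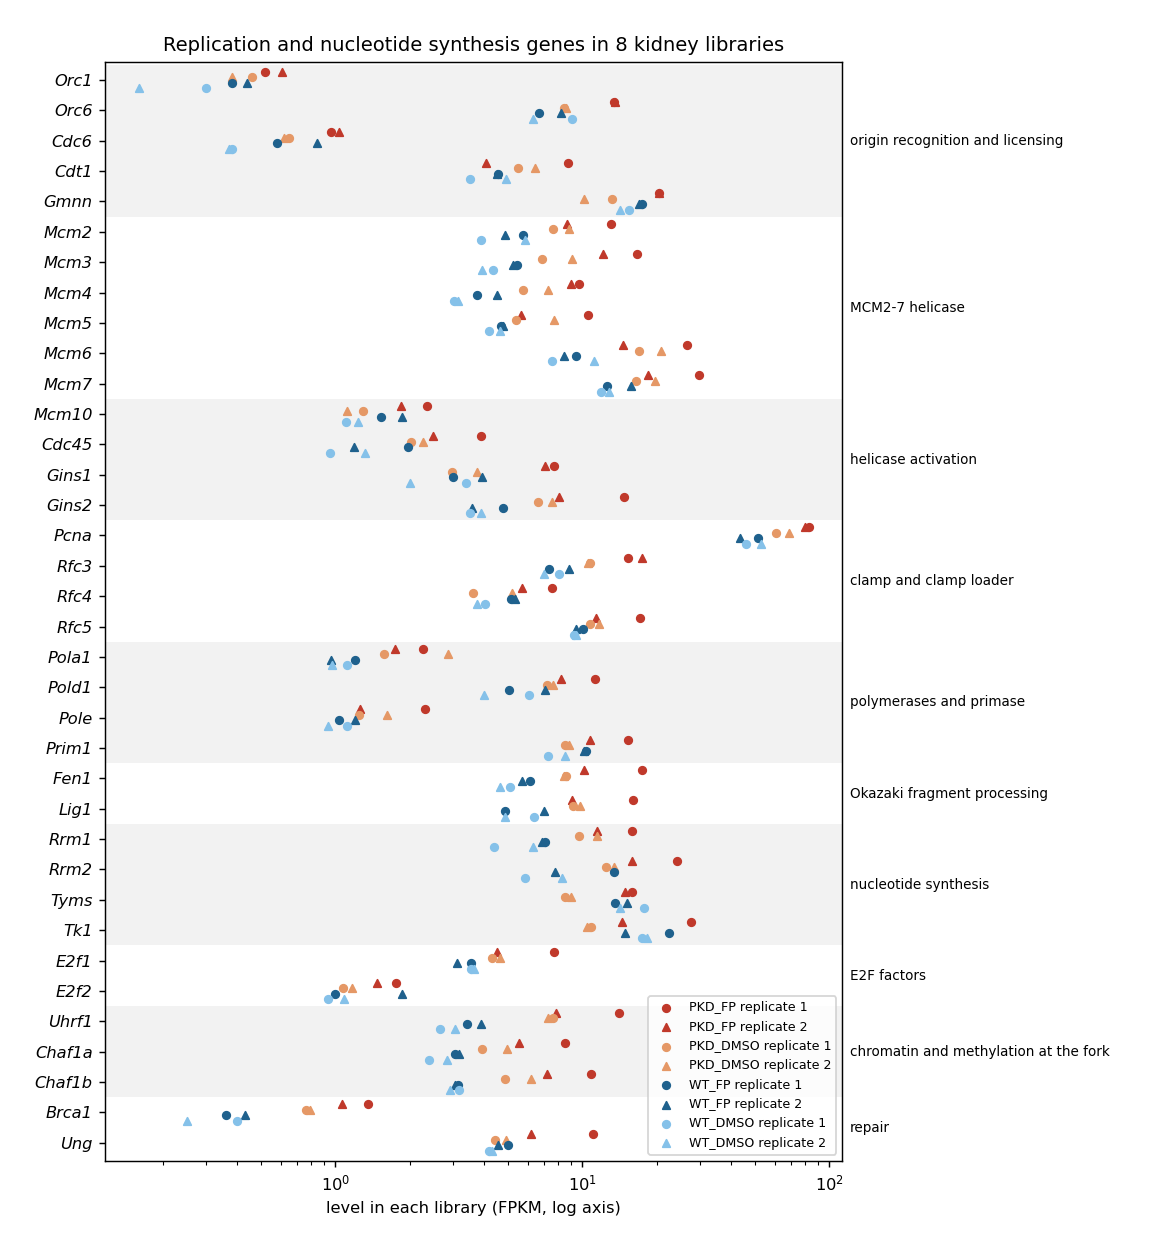
Level of each of the 36 genes in each of the 8 libraries (FPKM, log axis), grouped by role, with circles for replicate 1 and triangles for replicate 2. The PKD_FP points lie furthest right for most genes, and Tyms, Tk1 and Gmnn have their PKD_DMSO points to the left of both WT_DMSO points.

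As deposited, the 4 groups differed in the summed level of the 36 genes. The sum was 504.65 and 373.86 FPKM in the PKD_FP libraries, 290.34 and 323.11 FPKM in the PKD_DMSO libraries, 261.07 and 249.02 FPKM in the WT_FP libraries, and 229.49 and 237.98 FPKM in the WT_DMSO libraries. The ranges of the 4 groups did not overlap as deposited. Median-of-ratios scaling divides each library by a factor. It was 1.009 and 0.842 for the WT_DMSO libraries and 0.944 and 1.065 for the WT_FP libraries. The gap between the sums of WT_FP and WT_DMSO therefore depends on the scaling. PKD_FP replicate 1 had the highest value of the 8 libraries for 29 of the 36 genes and PKD_FP replicate 2 for 4 more. The other 3 genes peaked elsewhere: Tyms in WT_DMSO replicate 1, E2f2 in WT_FP replicate 2 and Pola1 in PKD_DMSO replicate 2. The 2 PKD_FP libraries also stood apart from each other: replicate 1 was above replicate 2 for 32 of the 36 genes, by a median of 0.48 on the log2 scale, against a median of -0.07 over all genes tested. Medians below that rest on PKD_FP, and counts of calls for the 36 genes and pathway lists, are therefore also given without replicate 1.

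In these whole-kidney samples, fewer cells of a type and less RNA per cell cannot be told apart. The cell makeup shown by marker genes moved with genotype, and its part in the results was not tested. In this paragraph a marker rose where the test described below called it higher than in wild-type kidneys given the same treatment. Of all genes tested 14.8% were called higher under DMSO and 8.71% under FP. All 10 macrophage and myeloid markers rose in PKD_DMSO kidneys and 9 of 10 rose in PKD_FP kidneys, with a summed level of 559.84 to 748.24 FPKM in PKD_FP and 550.06 to 1066.36 FPKM in PKD_DMSO kidneys, against 100.1 to 113.57 FPKM in WT_FP and 62.62 to 100.06 FPKM in WT_DMSO kidneys. The 10 proximal tubule markers summed to 1063.78 to 1289.48 FPKM in PKD_FP and 1576.51 to 2393.23 FPKM in PKD_DMSO kidneys, against 3353.33 to 6710.75 FPKM in WT_FP and 4796.4 to 6365.02 FPKM in WT_DMSO kidneys. In PKD_DMSO against WT_DMSO kidneys 5 of the 10 were called lower, against 7.52% of all genes tested. Aqp1 went the other way there, with a log2 difference of 0.72 that was not called. The 6 tubule injury markers all rose in both PKD_FP and PKD_DMSO kidneys, with a summed level of 1250.46 to 1631.77 FPKM in PKD_FP and 1503.66 to 1987.24 FPKM in PKD_DMSO kidneys, against 160.8 to 241.95 FPKM in WT_FP and 154.28 to 167.21 FPKM in WT_DMSO kidneys. Of the 6 fibroblast and myofibroblast markers 3 were called higher in PKD_FP and 4 in PKD_DMSO kidneys. Pdgfrb and Pdgfra had log2 differences of 0.72 and 0.45 in PKD_DMSO kidneys without a call. The 6 markers summed to 691.29 to 1200.22 FPKM in PKD_FP and 434.64 to 875.27 FPKM in PKD_DMSO kidneys, against 160.21 to 223.5 FPKM in WT_FP and 84.8 to 219.22 FPKM in WT_DMSO kidneys. Without PKD_FP replicate 1 the median log2 differences under FP were 2.30 for macrophage, 2.48 for injury and 2.57 for fibroblast markers. No marker of tubule, podocyte, endothelium, macrophage, fibroblast or mitosis was listed at 0 in any library, and the B and NK cell markers Cd79a, Ms4a1 and Ncr1 stayed below 1 FPKM in all 8.

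The comparison of PKD_DMSO with WT_DMSO kidneys asks how the replication genes stand in the diseased kidney without drug. The largest shifts were in the helicase ring, in ribonucleotide reductase and in Uhrf1, which were higher, and in thymidylate synthase, which was lower. The test was limma's moderated test on log2(FPKM + 1) with Benjamini-Hochberg adjustment over 14391 genes, and a gene was called at an adjusted p under 0.05. It called 4 of 34 genes higher (11.8%), which is not more than the 14.8% of all genes tested that were called higher, and 1 of 34 lower (2.94%), against 7.52% of all genes tested. The genes called higher were Mcm3, Mcm4, Rrm1 and Uhrf1, and the gene called lower was Tyms.

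Mcm3 (GRCm38.p6 chr1:20802966-20820312), a subunit of the replicative helicase, had 6.88 and 9.06 FPKM in PKD_DMSO kidneys, against 4.34 and 3.94 FPKM in WT_DMSO kidneys. Mcm4 (chr16:15623897-15637400), another subunit of the ring, had 5.75 and 7.25 FPKM in PKD_DMSO kidneys, against 3.02 and 3.14 FPKM in WT_DMSO kidneys. For both genes the groups did not overlap. Mcm3 was higher by 0.79 on the log2 scale (SE 0.20, limma Benjamini-Hochberg adjusted p = 0.0349) and Mcm4 by 0.87 (SE 0.17, adjusted p = 0.0169). The other 4 subunits of the ring had no overlap between groups either, but did not pass the threshold. Mcm6 had the largest of these differences, with 16.9 and 20.7 FPKM in PKD_DMSO kidneys, against 7.52 and 11.1 FPKM in WT_DMSO kidneys (log2 difference 0.96, limma Benjamini-Hochberg adjusted p = 0.0625). Over the 6 subunits the log2 difference ranged from 0.46 (Mcm5) to 0.96 (Mcm6). Among the factors that activate the ring, Gins2 had 6.63 and 7.51 FPKM in PKD_DMSO kidneys, against 3.52 and 3.88 FPKM in WT_DMSO kidneys, a log2 difference of 0.78 that was not called (limma Benjamini-Hochberg adjusted p = 0.0882). Cdc45 was likewise without overlap between groups and not called, whereas Mcm10 and Gins1 overlapped.

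Uhrf1 (chr17:56303337-56323486) binds half-methylated DNA behind the fork and brings the methyltransferase Dnmt1 to it. It had 7.57 and 7.26 FPKM in PKD_DMSO kidneys, against 2.66 and 3.04 FPKM in WT_DMSO kidneys. Its log2 difference of 1.13 (SE 0.26, limma Benjamini-Hochberg adjusted p = 0.0254) was the largest of the 36 genes in this comparison. Chaf1a and Chaf1b, the histone-depositing subunits listed with it, had log2 differences of 0.58 and 0.68 that were not called, without overlap between groups. Fen1 (0.69) and Lig1 (0.67) were likewise above WT_DMSO in both PKD_DMSO libraries and not called. The clamp and its loader differed by 0.13 (Rfc4) to 0.45 (Rfc3), and the polymerases and primase by 0.13 (Prim1) to 0.63 (Pola1), with no call.

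The 4 nucleotide genes divided. Rrm1 (chr7:102441695-102469771), the large subunit of ribonucleotide reductase, had 9.71 and 11.5 FPKM in PKD_DMSO kidneys, against 4.40 and 6.31 FPKM in WT_DMSO kidneys. It rose by 0.88 on the log2 scale (SE 0.22, limma Benjamini-Hochberg adjusted p = 0.0326), and its partner Rrm2 differed by 0.80 without passing the threshold (adjusted p = 0.104 in the same limma test). Tyms (chr5:30038546-30073645), which methylates dUMP to dTMP, had 8.49 and 8.98 FPKM in PKD_DMSO kidneys, against 17.8 and 14.2 FPKM in WT_DMSO kidneys. It fell by 0.80 on the log2 scale (SE 0.16, limma Benjamini-Hochberg adjusted p = 0.0165), and was the only one of the 36 genes called lower in any comparison. Tk1, the salvage kinase that also yields dTMP, had 10.8 and 10.4 FPKM in PKD_DMSO kidneys, against 17.4 and 18.3 FPKM in WT_DMSO kidneys. Its groups did not overlap, but its log2 difference of -0.70 had a standard error of 0.31 and was not called (limma Benjamini-Hochberg adjusted p = 0.147).

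Gmnn, the licensing inhibitor, was the third gene with both PKD_DMSO libraries below both WT_DMSO libraries, at 13.2 and 10.1 FPKM in PKD_DMSO kidneys, against 15.4 and 14.2 FPKM in WT_DMSO kidneys. Its log2 difference was -0.33 and was not called (limma Benjamini-Hochberg adjusted p = 0.169). Its target Cdt1 had 5.48 and 6.41 FPKM in PKD_DMSO kidneys, against 3.51 and 4.92 FPKM in WT_DMSO kidneys, and was not called. Among the low genes, Cdc6 had 0.65 and 0.62 FPKM in PKD_DMSO kidneys, against 0.38 and 0.37 FPKM in WT_DMSO kidneys. Brca1 had 0.76 and 0.79 FPKM in PKD_DMSO kidneys, against 0.40 and 0.25 FPKM in WT_DMSO kidneys.

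By position of the samples alone, 25 of the 34 tested genes (73.5%) had both PKD_DMSO libraries above both WT_DMSO libraries, against 41.2% of all genes tested, and 3 (8.82%) had both below, against 24.5%. The median log2 difference of the 36 genes was 0.44, against 0.12 over all genes tested, and 33 of 36 were above 0. The deposited scaling matters here: median-of-ratios scaling and quantile normalization moved the median of all genes to -0.01, and 29 and 27 of the 36 genes were then above 0. The calls over all genes, 2130 higher and 1082 lower as deposited, were 1544 higher and 1327 lower with median-of-ratios scaling and 1720 higher and 1528 lower with quantile normalization. Mcm4 and Tyms stayed called under both, and Mcm3, Rrm1 and Uhrf1 did not. Relative to the median of all genes, the called differences were 0.67 for Mcm3, 0.75 for Mcm4, 0.76 for Rrm1, 1.01 for Uhrf1 and -0.92 for Tyms. None of these calls held without PKD_DMSO replicate 2 or without WT_DMSO replicate 1. Fewer of all genes tested were called in each fit without a PKD_DMSO or WT_DMSO library. Without PKD_DMSO replicate 2 log2 differences were 0.62 for Mcm3, 0.73 for Mcm4, 0.77 for Rrm1, 1.16 for Uhrf1 and -0.83 for Tyms. Without WT_DMSO replicate 1 the signs were the same. Without PKD_DMSO replicate 1 the Mcm4 call stood, and without WT_DMSO replicate 2 those of Rrm1 and Tyms. With WT_FP replicate 1 or 2 left out of the fit, Mcm3 was no longer called.

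Erythroid markers were lower in the PKD_DMSO libraries, where Tyms was called lower and Tk1 and Gmnn lay below WT_DMSO without a call. The 6 erythroid markers, globins and the heme synthesis gene Alas2 among them, summed to 948.41 and 971.27 FPKM in PKD_FP kidneys and 202.94 and 284.99 FPKM in PKD_DMSO kidneys, against 1582.34 and 1705.03 FPKM in WT_FP kidneys and 1684.8 and 1841.17 FPKM in WT_DMSO kidneys. All 5 of those that were tested were called lower in PKD_DMSO relative to WT_DMSO kidneys, against 7.52% of all genes tested. Their median log2 difference was -2.85. In PKD_FP relative to WT_FP kidneys 2 of the 5 were called lower, against 5.23% of all genes tested, with a median of -0.79. Tyms, Tk1 and Gmnn had log2 differences of 0.10, 0.13 and 0.24 there and were not called. Without PKD_FP replicate 1 the median of the 5 erythroid markers was -0.71. Whether red cell precursors contributed to the levels of Tyms, Tk1 and Gmnn was not tested. Alas2, an enzyme of red cell precursors, had 2.83 and 2.90 FPKM in PKD_FP kidneys and 0.76 and 1.18 FPKM in PKD_DMSO kidneys, against 5.01 and 6.44 FPKM in WT_FP kidneys and 4.40 and 5.78 FPKM in WT_DMSO kidneys. The pseudogene Tyms-ps is listed apart, at 0.25 to 1.19 FPKM. The labels do not say how reads matching both were assigned.

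**Figure D2:**
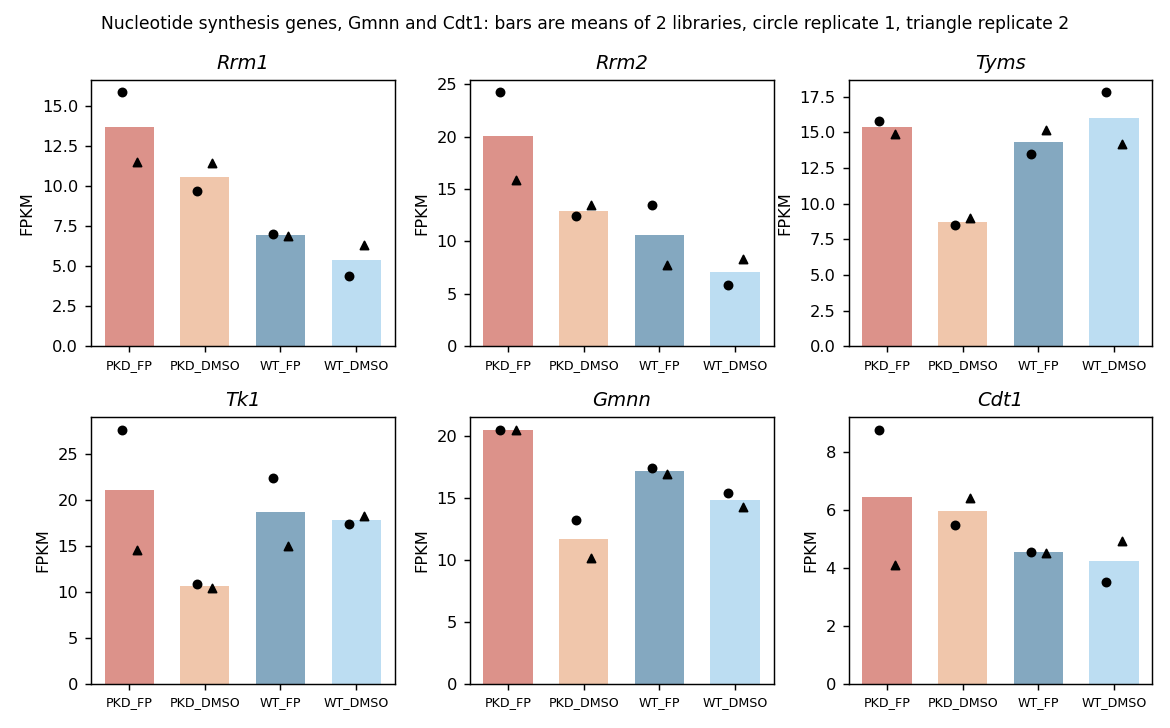
Level (FPKM) of Rrm1, Rrm2, Tyms, Tk1, Gmnn and its target Cdt1 in each group, with bars for the mean of 2 libraries, circles for replicate 1 and triangles for replicate 2. Rrm1, Rrm2 and Cdt1 are higher in both PKD_DMSO libraries than in both WT_DMSO libraries, whereas Tyms, Tk1 and Gmnn are lower.

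Promoter sequences are shown for the genes called in PKD_DMSO against WT_DMSO, to set the genes that rose beside Tyms, which fell. They are RefSeq windows of 300 bases, from 250 before to 50 after a transcript start, on build GRCm38.p6. Capitals mark CCAAT boxes, bound by the factor NF-Y, and 4 words of the E2F site, TTTCCCGC, TTTCGCGC, TTTGCCGC and TTTGGCGC, on either strand. Mcm4 is called too and is named only.
Mcm3, chr1:20820263-20820562, minus strand: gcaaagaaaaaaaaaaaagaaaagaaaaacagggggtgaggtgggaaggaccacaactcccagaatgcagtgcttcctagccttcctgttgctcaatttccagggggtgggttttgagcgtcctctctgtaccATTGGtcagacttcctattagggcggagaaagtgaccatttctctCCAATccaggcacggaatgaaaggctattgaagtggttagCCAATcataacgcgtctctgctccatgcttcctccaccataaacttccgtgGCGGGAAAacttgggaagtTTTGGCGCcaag
Rrm1, chr7:102441445-102441744, plus strand: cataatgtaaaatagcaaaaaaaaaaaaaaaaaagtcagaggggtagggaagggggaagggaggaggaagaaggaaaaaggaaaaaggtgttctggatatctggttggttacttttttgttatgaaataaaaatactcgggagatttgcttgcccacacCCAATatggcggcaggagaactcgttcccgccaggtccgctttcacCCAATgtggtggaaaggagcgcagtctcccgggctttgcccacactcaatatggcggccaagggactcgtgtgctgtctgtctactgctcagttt
Uhrf1 upstream start, chr17:56303087-56303386, plus strand: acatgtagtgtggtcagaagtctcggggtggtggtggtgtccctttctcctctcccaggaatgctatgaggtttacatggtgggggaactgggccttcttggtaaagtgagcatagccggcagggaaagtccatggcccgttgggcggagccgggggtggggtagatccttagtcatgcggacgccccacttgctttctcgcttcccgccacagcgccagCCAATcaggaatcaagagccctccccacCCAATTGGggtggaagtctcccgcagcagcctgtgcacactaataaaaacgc
Uhrf1 downstream start, chr17:56304063-56304362, plus strand: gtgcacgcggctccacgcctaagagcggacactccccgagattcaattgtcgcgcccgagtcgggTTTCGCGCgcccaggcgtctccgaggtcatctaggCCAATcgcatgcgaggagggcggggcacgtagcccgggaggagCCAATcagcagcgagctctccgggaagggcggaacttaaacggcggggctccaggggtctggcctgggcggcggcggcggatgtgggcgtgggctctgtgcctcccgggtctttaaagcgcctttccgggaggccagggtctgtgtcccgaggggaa
Tyms, chr5:30073576-30073875, minus strand: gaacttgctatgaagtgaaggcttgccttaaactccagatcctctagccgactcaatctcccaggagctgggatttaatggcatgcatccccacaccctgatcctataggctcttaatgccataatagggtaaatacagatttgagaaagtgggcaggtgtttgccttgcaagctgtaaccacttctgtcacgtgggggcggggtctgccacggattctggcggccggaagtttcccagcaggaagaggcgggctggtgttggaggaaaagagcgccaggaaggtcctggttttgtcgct
The Mcm3 window holds 2 E2F words, both just after the start, and 3 CCAAT boxes. The Rrm1 window holds 2 CCAAT boxes and none of the E2F words. The upstream start of Uhrf1 has 3 CCAAT boxes, 2 of which overlap on opposite strands, and the downstream start has 1 E2F word and 2 CCAAT boxes. The Tyms window holds neither of these motifs. Its transcript start lies inside the RefSeq gene span, not at the outer end.

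A window was at hand for 31 of the 36 genes. An E2F word was present in 13 of these 31 genes (41.9%), against 2.6% of 27025 genes with a window. The 13 were Orc1, Cdc6, Cdt1, Mcm3, Mcm5, Mcm6, Mcm7, Rfc3, Pola1, Pold1, Lig1, E2f2 and Uhrf1. A CCAAT box was present in 19 of 31 genes (61.3%), against 41.1% of all genes, and both motifs in 9 of 31 (29.0%), against 1.3%. The E2F word is thus present in genes that rose, such as Mcm3 and Uhrf1, and in genes that were not called in any comparison, such as Mcm5, Cdt1 and Pold1. A match is a stretch of letters and does not show that a factor binds there.

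Under flavopiridol, the comparison of PKD_FP with WT_FP kidneys gave more calls among these genes. The called genes fell in 7 of the 10 roles: origin recognition, helicase ring, helicase activation, clamp and clamp loader, fragment processing, ribonucleotide reductase and all 3 genes for chromatin and methylation at the fork. None was called among the polymerases and primase, the E2F factors and the repair genes. The limma test called 12 of 34 genes higher (35.3%), against 8.71% of all genes tested, and 0 lower, against 5.23%. At an unadjusted p under 0.05 limma gave 23 higher and 0 lower, against 18.9% and 12.5% of all genes tested. Brca1, which passed the filter only through PKD_FP, is among the 23. Mcm3, Mcm4, Rrm1 and Uhrf1 were called in both genotype comparisons, Orc6, Gins1, Gins2, Pcna, Rfc3, Fen1, Chaf1a and Chaf1b under FP and not under DMSO, and Tyms under DMSO and not under FP. The interaction test, which asks whether the genotype difference itself changed with the drug, called none of them.

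Uhrf1 again had the largest log2 difference, 1.32 (SE 0.26, limma Benjamini-Hochberg adjusted p = 0.0239). It had 14.1 and 7.82 FPKM in PKD_FP kidneys, against 3.42 and 3.87 FPKM in WT_FP kidneys. Chaf1b had 10.8 and 7.22 FPKM in PKD_FP kidneys, against 3.13 and 3.04 FPKM in WT_FP kidneys. Chaf1a, the partner of Chaf1b in histone deposition, had 8.49 and 5.56 FPKM in PKD_FP kidneys, against 3.05 and 3.17 FPKM in WT_FP kidneys. The 2 subunits rose by 1.27 and 0.94 on the log2 scale (limma Benjamini-Hochberg adjusted p = 0.0176 for Chaf1b and 0.0393 for Chaf1a). For all 3 genes the lower PKD_FP library was above the higher WT_FP library.

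In the helicase, Mcm3 had 16.6 and 12.2 FPKM in PKD_FP kidneys, against 5.45 and 5.23 FPKM in WT_FP kidneys, a log2 difference of 1.26 (SE 0.20, limma Benjamini-Hochberg adjusted p = 0.0149). Mcm4 had 9.70 and 9.01 FPKM in PKD_FP kidneys, against 3.76 and 4.50 FPKM in WT_FP kidneys, a log2 difference of 1.02 (SE 0.17, adjusted p = 0.0171 in the same limma test). The replicates of Mcm4 lay close together in both groups. The GINS subunit Gins2 had 14.7 and 8.01 FPKM in PKD_FP kidneys, against 4.78 and 3.57 FPKM in WT_FP kidneys. Gins1, a second GINS subunit, had 7.70 and 7.08 FPKM in PKD_FP kidneys, against 3.0 and 3.93 FPKM in WT_FP kidneys. Gins2 rose by 1.21 and Gins1 by 0.92 on the log2 scale (limma Benjamini-Hochberg adjusted p = 0.0358 for Gins2 and 0.0477 for Gins1). The remaining ring subunits, Mcm2, Mcm5, Mcm6 and Mcm7, had log2 differences of 0.89, 0.61, 1.06 and 0.69, without overlap between groups and without a call. Cdc45, the third part of the active helicase, had 3.88 and 2.48 FPKM in PKD_FP kidneys, against 1.97 and 1.19 FPKM in WT_FP kidneys, and was not called. Mcm10, Cdt1 and Gmnn differed by 0.20, 0.35 and 0.24 on the log2 scale and were not called.

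At the fork, Pcna had 82.6 and 79.8 FPKM in PKD_FP kidneys, against 51.5 and 43.6 FPKM in WT_FP kidneys. Rfc3, a small subunit of the loader that opens the Pcna ring, had 15.3 and 17.5 FPKM in PKD_FP kidneys, against 7.32 and 8.80 FPKM in WT_FP kidneys. Pcna rose by 0.76 and Rfc3 by 0.94 on the log2 scale (limma Benjamini-Hochberg adjusted p = 0.0266 for Pcna and 0.0162 for Rfc3). Fen1, the flap endonuclease of lagging-strand synthesis, had 17.4 and 10.1 FPKM in PKD_FP kidneys, against 6.14 and 5.68 FPKM in WT_FP kidneys. It rose by 1.05 (adjusted p = 0.0352 in the same limma test), and the ligase Lig1 differed by 0.94 without a call (adjusted p = 0.0761). None of Pola1, Pold1, Pole and Prim1 was called, although all 4 were higher in both PKD_FP libraries than in both WT_FP libraries, by 0.30 to 0.60 on the log2 scale. Rfc4 and Rfc5, the other loader subunits here, differed by 0.27 and 0.47 and were not called.

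Orc6, the smallest subunit of the origin recognition complex, had 13.5 and 13.6 FPKM in PKD_FP kidneys, against 6.70 and 8.18 FPKM in WT_FP kidneys, and rose by 0.79 on the log2 scale (SE 0.19, limma Benjamini-Hochberg adjusted p = 0.0416). Rrm1 had 15.8 and 11.5 FPKM in PKD_FP kidneys, against 7.03 and 6.85 FPKM in WT_FP kidneys, and rose by 0.87 (adjusted p = 0.0449 in the same limma test). Rrm2 had 24.2 and 15.9 FPKM in PKD_FP kidneys, against 13.5 and 7.75 FPKM in WT_FP kidneys, a log2 difference of 0.87 that was not called (adjusted p = 0.107). The activator E2f1 had 7.68 and 4.53 FPKM in PKD_FP kidneys, against 3.55 and 3.12 FPKM in WT_FP kidneys, and was not called either. Its relative E2f2 overlapped between the groups. Ung had 11.1 and 6.20 FPKM in PKD_FP kidneys, against 5.01 and 4.54 FPKM in WT_FP kidneys, and Brca1 had 1.35 and 1.06 FPKM in PKD_FP kidneys, against 0.36 and 0.43 FPKM in WT_FP kidneys. Neither was called.

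Tyms showed no difference that the test could call under FP. It had 15.8 and 14.9 FPKM in PKD_FP kidneys, against 13.5 and 15.2 FPKM in WT_FP kidneys, with a log2 difference of 0.10 and a 95% interval from -0.28 to 0.47. The interval of this difference does not reach the -0.80 measured under DMSO, which has its own 95% interval, from -1.17 to -0.42. The interaction test, which compares these differences, did not call Tyms (limma Benjamini-Hochberg adjusted p = 0.384). Tk1 had 27.6 and 14.5 FPKM in PKD_FP kidneys, against 22.3 and 14.9 FPKM in WT_FP kidneys, and its groups overlapped.

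All 36 genes had a log2 difference above 0 between PKD_FP and WT_FP kidneys, also with median-of-ratios scaling and quantile normalization. Their median was 0.69, against 0.07 over all genes tested, and 29 of the 34 tested genes (85.3%) had both PKD_FP libraries above both WT_FP libraries, against 34.6% of all genes tested. Brca1, which passed the filter only through PKD_FP, is in this count and in that without PKD_FP replicate 1. The number of calls depended on single libraries. Without PKD_FP replicate 1, limma called 0 of 34 genes after Benjamini-Hochberg adjustment, and 1.45% of all genes tested were called higher. At an unadjusted p under 0.05 that fit gave 12 higher and 0 lower, against 15.1% and 10.4% of all genes tested. The remaining PKD_FP library lay above both WT_FP libraries in 29 of the 34 genes, against 47.3% of all genes tested. In that fit the median log2 difference was 0.42, with 34 of 36 genes above 0. The 12 genes called with all 8 libraries had log2 differences from 0.65 to 1.05 there. Without WT_FP replicate 1 the count was also 0, with 1.05% of all genes called higher, without WT_FP replicate 2 it was 3, with 4.43% of all genes called higher, and without PKD_FP replicate 2 it was 4, with 0.91%. With PKD_DMSO replicate 1 or 2 left out, neither of which enters this difference, it was 4, through the shared estimate of the spread, with 5.07% and 5.06% of all genes called higher.

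**Figure D3:**
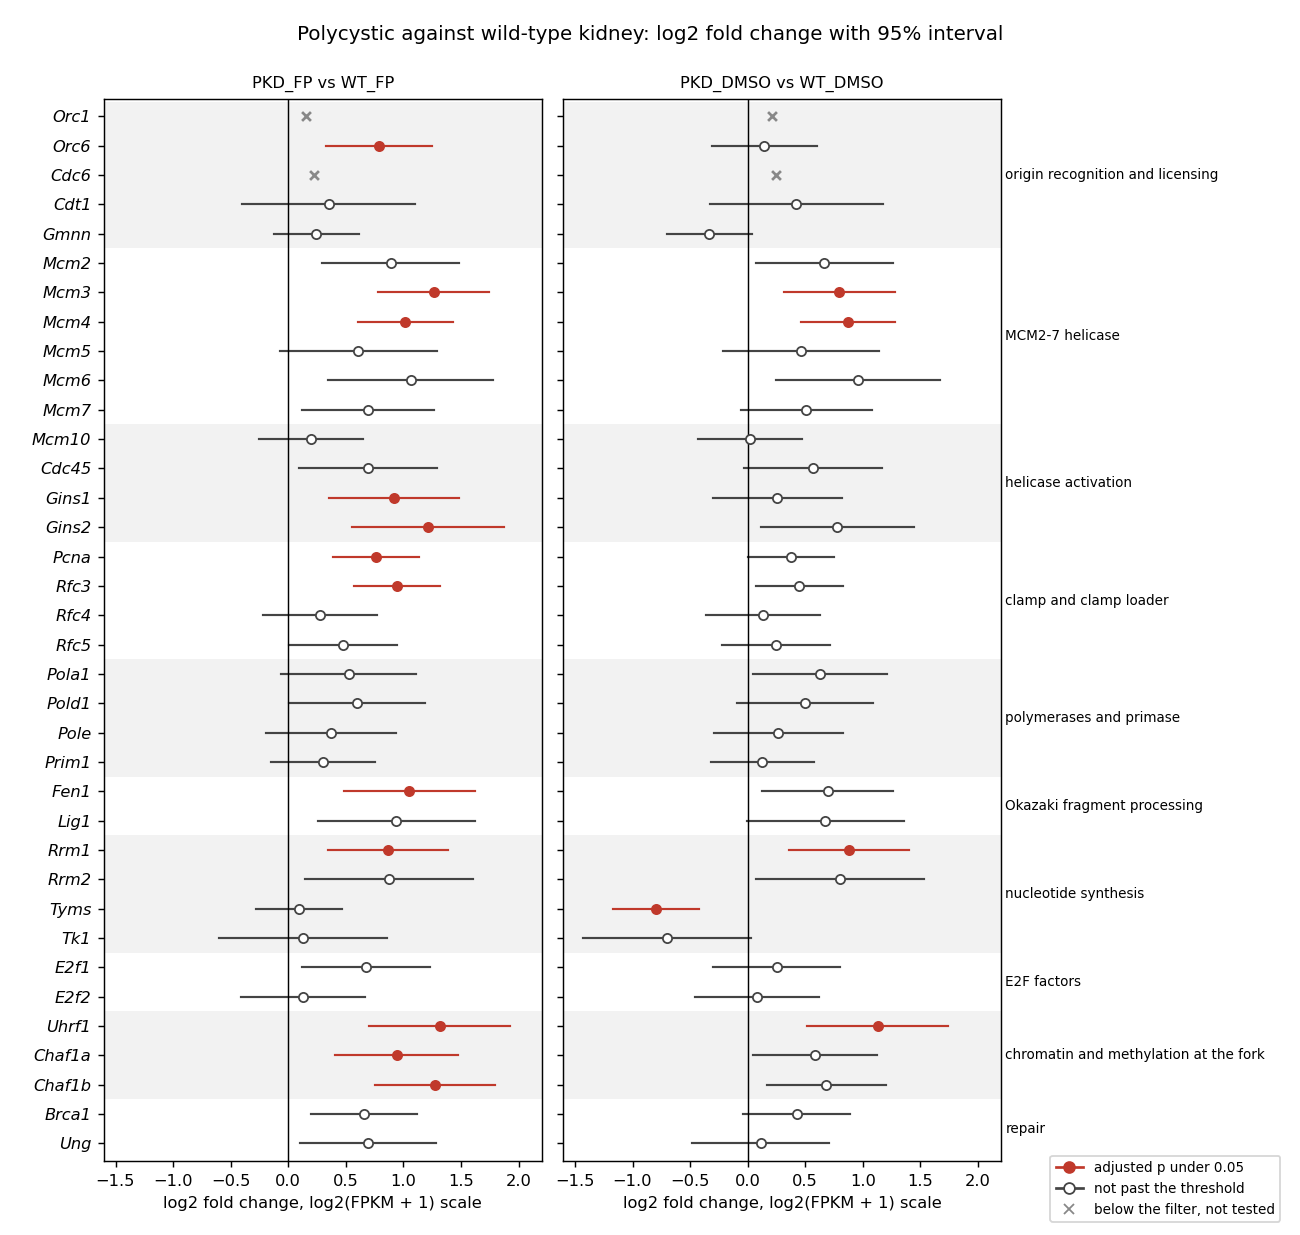
Log2 fold change between polycystic and wild-type kidneys for each gene on the log2(FPKM + 1) scale with its 95% interval, under FP on the left and under DMSO on the right, with filled red points for genes at an adjusted p under 0.05 and crosses for Orc1 and Cdc6, which were not tested. All points lie right of 0 under FP, and Tyms, Tk1 and Gmnn lie left of 0 under DMSO.

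The comparison of PKD_FP with PKD_DMSO kidneys asks what the drug did in the diseased kidney. The replication genes were mostly at higher levels with the drug, but none passed the threshold. The limma test with Benjamini-Hochberg adjustment called 0 of 34 genes in either direction, against 0.00695% of all genes tested in each direction (1 gene higher and 1 lower). At an unadjusted p under 0.05, 15 genes were higher and 0 lower, against 10.3% and 9.14% of all genes tested. The log2 difference ranged from -0.08 (Pola1) to 0.95 (Gins1), with a median of 0.42 over the 36 genes, against 0.04 over all genes tested. In 24 of the 34 tested genes (70.6%) both PKD_FP libraries were above both PKD_DMSO libraries, against 31.4% of all genes tested. This count and that without PKD_FP replicate 1 include Brca1, which passed the filter only through PKD_FP.

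The largest differences were in Gins1, Tk1, Gmnn, Mcm3 and Tyms, which includes the 3 genes that lay below WT_DMSO levels in PKD_DMSO kidneys. Both comparisons use the same PKD_DMSO libraries. Gins1 had 7.70 and 7.08 FPKM in PKD_FP kidneys, against 2.97 and 3.73 FPKM in PKD_DMSO kidneys (log2 difference 0.95, limma Benjamini-Hochberg adjusted p = 0.132). Gmnn had 20.5 FPKM in both PKD_FP libraries, against 13.2 and 10.1 FPKM in PKD_DMSO kidneys (log2 difference 0.77, adjusted p = 0.124 in the same limma test). Tyms had 15.8 and 14.9 FPKM in PKD_FP kidneys, against 8.49 and 8.98 FPKM in PKD_DMSO kidneys (log2 difference 0.75, limma Benjamini-Hochberg adjusted p = 0.125). In these 3 genes the PKD_FP replicates agreed closely and stood clear of both PKD_DMSO libraries. Tk1 had 27.6 and 14.5 FPKM in PKD_FP kidneys, against 10.8 and 10.4 FPKM in PKD_DMSO kidneys, a wider spread with no overlap. Mcm3 had 16.6 and 12.2 FPKM in PKD_FP kidneys, against 6.88 and 9.06 FPKM in PKD_DMSO kidneys (log2 difference 0.77, limma Benjamini-Hochberg adjusted p = 0.141). Without PKD_FP replicate 1, limma gave 5 genes higher and 0 lower at an unadjusted p under 0.05, against 7.54% and 7.46% of all genes tested. The remaining PKD_FP library lay above both PKD_DMSO libraries in 24 of the 34 genes, against 47.7% of all genes tested. Without that replicate the median of the 36 genes was 0.23 with 30 above 0, and without PKD_FP replicate 2 it was 0.63 with all 36 above 0.

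Some replication genes differed little between PKD_FP and PKD_DMSO kidneys. Mcm6 had 26.5 and 14.6 FPKM in PKD_FP kidneys, against 16.9 and 20.7 FPKM in PKD_DMSO kidneys, so that the PKD_DMSO libraries lay between the PKD_FP libraries. Its log2 difference was 0.07 with a 95% interval from -0.64 to 0.79. Cdt1 had 8.75 and 4.09 FPKM in PKD_FP kidneys, against 5.48 and 6.41 FPKM in PKD_DMSO kidneys (log2 difference 0.02, 95% interval -0.72 to 0.77). These intervals are wide, and do not show that the levels were alike. Pola1 had 2.26 and 1.74 FPKM in PKD_FP kidneys, against 1.57 and 2.87 FPKM in PKD_DMSO kidneys.

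In wild-type kidneys the drug made no difference that the limma test could call in any of the 34 genes, and 0% of all genes tested were called. None reached an unadjusted p under 0.05, against 0.91% of all genes tested higher and 0.361% lower. The largest log2 difference was in Rrm2, which had 13.5 and 7.75 FPKM in WT_FP kidneys, against 5.85 and 8.28 FPKM in WT_DMSO kidneys (0.50, 95% interval -0.23 to 1.23). Rfc4 had 5.16 and 5.35 FPKM in WT_FP kidneys, against 4.02 and 3.73 FPKM in WT_DMSO kidneys (0.36), and Prim1 had 10.3 and 10.2 FPKM in WT_FP kidneys, against 7.25 and 8.53 FPKM in WT_DMSO kidneys (0.34). Rrm1 had 7.03 and 6.85 FPKM in WT_FP kidneys, against 4.40 and 6.31 FPKM in WT_DMSO kidneys (0.34). Rfc4, Prim1 and Rrm1 did not overlap between the groups, and Rrm2 did. Both WT_FP libraries were above both WT_DMSO libraries in 13 of the 34 tested genes (38.2%) and below them in 0, against 16.6% and 5.32% of all genes tested. The median over the 36 genes was 0.16, against 0.09 over all genes tested. The number of genes above 0 was 31 of 36 as deposited, 23 with median-of-ratios scaling and 20 with quantile normalization.

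**Figure D4:**
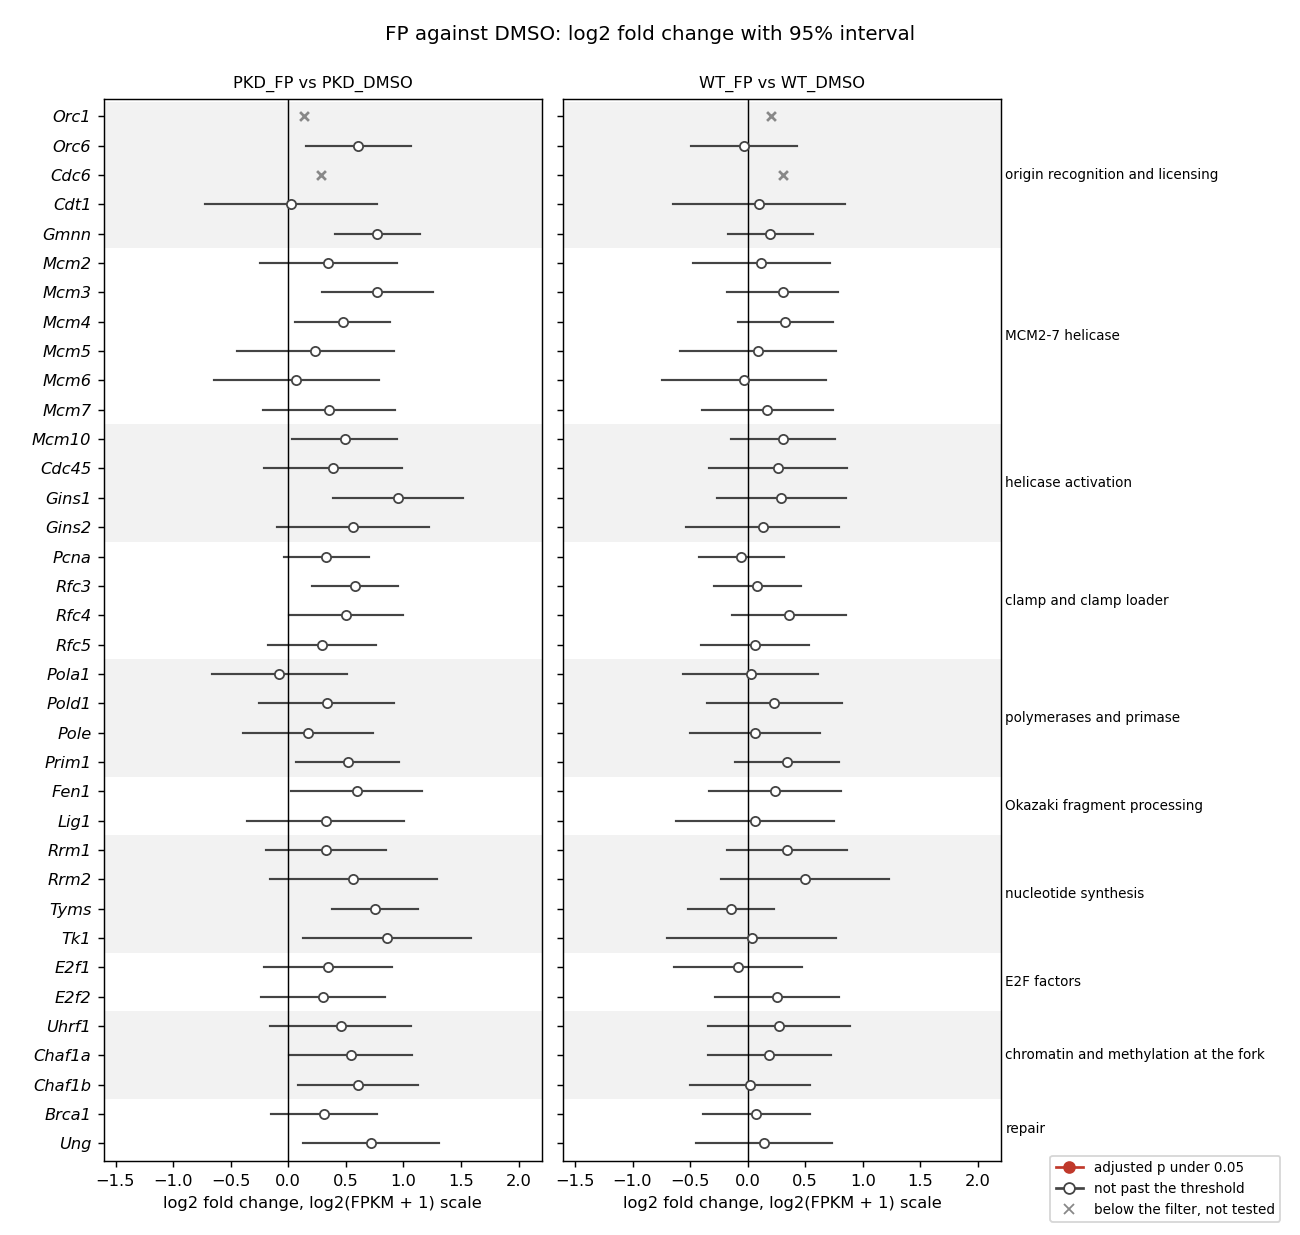
Log2 fold change between FP and DMSO for each gene on the log2(FPKM + 1) scale with its 95% interval, in polycystic kidneys on the left and in wild-type kidneys on the right, with open points for genes not past the threshold and crosses for Orc1 and Cdc6, which were not tested. No point is filled in either panel; in polycystic kidneys Gins1 lies furthest right, at 0.95.

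The interaction, the PKD minus WT difference under FP less that under DMSO, was not called by limma for any of the 34 genes after Benjamini-Hochberg adjustment, and for 0% of all genes tested. At an unadjusted p under 0.05 it gave 2 genes higher, Tyms and Gmnn, and 0 lower, against 4.45% of all genes tested higher and 6.78% lower. Tyms had the largest value, 0.89 on the log2 scale (95% interval 0.37 to 1.42, limma Benjamini-Hochberg adjusted p = 0.384). Tk1 had 0.83 with a wider interval, from -0.21 to 1.86, and Gins1 and Orc6 had 0.66 and 0.64, with intervals that also included 0. The Tyms value was 0.85 without PKD_FP replicate 1 and 0.93 without PKD_FP replicate 2. Over the 36 genes the median interaction was 0.21, against -0.05 over all genes tested, but without PKD_FP replicate 1 it was -0.01, with 17 of 36 above 0.

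The other genes of the pathway were read from 5 lists that hold none of the 36. In PKD_DMSO against WT_DMSO kidneys, limma called 2 of 17 tested origin and helicase genes higher, Topbp1 and Dbf4, and 0 lower. The background in this comparison was 14.8% of all genes tested called higher and 7.52% called lower. Dbf4, the activating subunit of the kinase that fires origins, had 4.75 and 5.82 FPKM in PKD_DMSO kidneys, against 2.56 and 2.45 FPKM in WT_DMSO kidneys. Among 18 fork enzymes 2 rose and 0 fell: Rpa2, a subunit of the protein that coats single-stranded DNA, by 0.78 on the log2 scale, and Top2a, the topoisomerase that untangles copied DNA, by 0.62. Among 14 tested genes for chromatin and repair at the fork 1 rose and 0 fell. The shares called higher in these 3 lists were below the background. Of 23 tested genes of the E2F and RB network 6 rose and 0 fell, with the largest changes in the cell cycle inhibitors Cdkn1a (3.16) and Cdkn2a (1.75) and in the kinase Cdk6 (1.27). Cdkn1a, which encodes the CDK inhibitor p21, had 64.97 and 69.97 FPKM in PKD_DMSO kidneys, against 8.14 and 5.42 FPKM in WT_DMSO kidneys.

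The nucleotide supply list, 31 genes, moved in both directions, with 7 called higher and 4 lower, against the same 14.8% and 7.52% of all genes tested. Ctps, which makes CTP, had 37.8 and 36.8 FPKM in PKD_DMSO kidneys, against 7.5 and 8.92 FPKM in WT_DMSO kidneys, and rose by 2.06 on the log2 scale (limma Benjamini-Hochberg adjusted p = 0.00152). Shmt2, a mitochondrial enzyme that loads carbon onto folate, had 47.4 and 39.8 FPKM in PKD_DMSO kidneys, against 97.5 and 110.7 FPKM in WT_DMSO kidneys, and fell by 1.24 (adjusted p = 0.0118 in the same limma test). Mthfd2, another mitochondrial folate enzyme, rose by 1.15. Of 10 proximal tubule markers 5 were called lower in the same libraries, and Aqp1 was higher there without a call. The part of these markers in these differences was not tested.

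In PKD_FP against WT_FP kidneys the 5 lists gave 2 of 17, 3 of 18, 4 of 31, 8 of 23 and 1 of 14 genes called higher, in the order origin and helicase, fork enzymes, nucleotide supply, E2F and RB network, and chromatin and repair. Of all genes tested 8.71% were called higher and 5.23% lower, and the count for chromatin and repair did not exceed that background. Without PKD_FP replicate 1 the counts called higher were 0, 0, 2, 0 and 0, the 2 being Ctps and Mthfd2, against 1.45% of all genes tested. Dbf4 (0.80) and Topbp1 (0.67) were the origin genes, and Rpa2 (1.02), Rnaseh2a (0.88) and Top2a (0.75) the fork enzymes, each value a log2 difference. In nucleotide supply Mthfd2 (1.48) and Ctps (1.33) rose most. Genes called lower were Shmt2 (-1.24) and Prps2 in nucleotide supply and Rbl2, an RB relative, in the E2F and RB network. Cdkn1a (1.89), Cdkn2a (1.31) and Ccne1 (1.15), the cyclin that drives entry into S phase, changed most in the network. The histone chaperone Asf1b had 8.39 and 4.98 FPKM in PKD_FP kidneys, against 3.03 and 2.54 FPKM in WT_FP kidneys. No gene of the 5 lists was called in either drug comparison.

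Markers of mitosis were read beside the replication genes. Of 16 markers 8 rose in PKD_FP relative to WT_FP kidneys, Mki67, Cdk1, Birc5 and Plk1 among them, and 1, Top2a, rose in PKD_DMSO relative to WT_DMSO kidneys, against 8.71% and 14.8% of all genes tested. Top2a is also in the fork enzyme list, so its calls are counted in both lists. Without PKD_FP replicate 1 the median log2 difference of the 16 markers under FP was 0.68, against 0.78 with it. Their summed level was 177.26 and 141.22 FPKM in PKD_FP kidneys and 71.56 and 83.78 FPKM in PKD_DMSO kidneys, against 86.87 and 73.4 FPKM in WT_FP kidneys and 62.94 and 61.35 FPKM in WT_DMSO kidneys. The mitosis sum, like that of the replication genes, was highest in PKD_FP replicate 1, whereas the macrophage sum was highest in PKD_DMSO replicate 2 and the lymphocyte sum in PKD_FP replicate 2. The lymphocyte sum was 11.93 and 14.59 FPKM in PKD_FP kidneys and 5.63 and 10.26 FPKM in PKD_DMSO kidneys, against 6.12 and 4.72 FPKM in WT_FP kidneys and 5.73 and 5.83 FPKM in WT_DMSO kidneys. Which cells carried the replication transcripts was not tested.

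**Figure D5:**
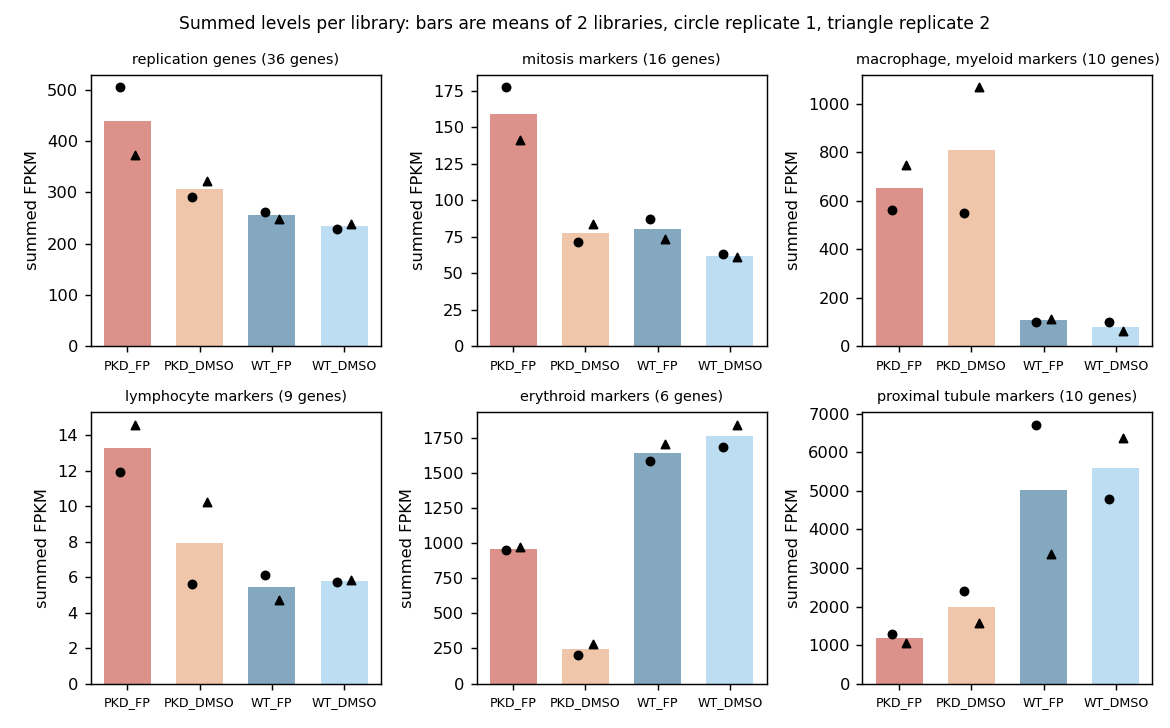
Summed FPKM per library of the 36 replication genes and of 5 marker lists, with bars for the mean of 2 libraries, circles for replicate 1 and triangles for replicate 2. Replication genes and mitosis markers are highest in PKD_FP, macrophage markers are high in both polycystic groups, and erythroid markers are lowest in PKD_DMSO.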

How the data were processed

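RNA was read in 8 mouse kidney libraries, and groups and replicate numbers come from the labels. The values deposited by the authors are FPKM per gene, rounded to 2 decimals. No header names the unit, which was inferred from the values, and fragments were not told apart from reads. The submitters' processing notes name the aligner Bowtie2, DESeq2 and build mm10, with neither versions nor roles. Of 20245 entries per file, 4 with repeated symbols and 1 without a symbol were left out. FPKM summed to 485924 to 572661 per library, with 12788 to 13810 genes at 1 FPKM or more. No source used here gives the depth. Steps between low values gave an estimated 16400000 to 21100000 reads per library, but only 65.1% to 73.0% of low values fell within 0.2 of a whole read, so counts were not recovered and no counting interval is given.

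Tests used log2(FPKM + 1), which understates the change of low genes, and no further scaling. A gene was tested where 2 or more libraries reached 1 FPKM, which kept 14391. The fit, in limma 3.58.1 under R 4.3.3 with trend and robust moderation, had 4 group means and all 8 libraries. Two-sided p-values were adjusted over every tested gene (Benjamini-Hochberg) and called below 0.05. Contrasts fitted were PKD_DMSO vs WT_DMSO, PKD_FP vs WT_FP, PKD_FP vs PKD_DMSO, WT_FP vs WT_DMSO and the interaction, so comparisons share libraries and are not independent. The test was tested on simulated data with known changes. Tables, promoter words and figures were made with Python 3.11.15, pandas 2.3.3 and matplotlib 3.10.9. Gene coordinates and promoter windows are from RefSeq on GRCm38.p6. Identifiers were matched by symbol.

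The 36 genes, the pathway lists and the marker lists were chosen with earlier results of these data known. All 36 are named, those called are given with their values, and of those not called the 4 with the largest log2 difference per comparison. From pathway lists, up to 3 called genes per comparison with the largest change were named. A few genes of the lists that the rule would name are not reported here. Mthfd2 in PKD_DMSO vs WT_DMSO, Tyms-ps and Alas2 were chosen with their values in view. Alternatives were no filter, at least 2 FPKM in at least 4 libraries, a pseudocount of 0.1, median-of-ratios scaling, quantile normalization, a replicate block, only the groups compared and each library left out. A crossed replicate block, and the lists' counts without PKD_FP replicate 1, were added after the values had been seen.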

Additional observations from a re-analysis of the deposited data

Results flagged for a closer look

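Gmnn lay on opposite sides of WT in the 2 genotype comparisons, and was called in neither. Its log2 difference was 0.24 between PKD_FP and WT_FP kidneys (limma Benjamini-Hochberg adjusted p = 0.335) and -0.33 between PKD_DMSO and WT_DMSO kidneys (limma Benjamini-Hochberg adjusted p = 0.169). Both PKD_FP libraries were above both WT_FP libraries, at 20.5 FPKM in each PKD_FP library, against 17.4 and 16.9 FPKM in WT_FP kidneys. Both PKD_DMSO libraries were below both WT_DMSO libraries, at 13.2 and 10.1 FPKM in PKD_DMSO kidneys, against 15.4 and 14.2 FPKM in WT_DMSO kidneys. The genotype difference under FP less that under DMSO was 0.576 on the log2 scale (95% interval 0.05 to 1.10). It was tested as the interaction in limma and did not pass (limma Benjamini-Hochberg adjusted p = 0.428), and it ranged from 0.40 to 0.75 when each library was left out. Erythroid markers were lower in the polycystic libraries in both comparisons, and their part in this was not tested.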

How the results depend on the processing

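No call turned its direction under any alternative. For PKD_DMSO vs WT_DMSO 4 genes were called higher and 1 lower. With median-of-ratios scaling, with quantile normalization and with only the groups compared, 1 was higher. Of all genes tested 10.7%, 12% and 8.76% were then called higher, against 14.8%. With only the groups compared 2 were lower, Tyms and Tk1, with 4.91% of all genes called lower, against 7.52%. The count called higher also moved with each library left out, in some fits to none. Fewer of all genes tested were called higher in every such fit. The count rose only with PKD_FP replicate 1 or 2 left out, which adds Mcm6, Gins2 and Fen1. For PKD_FP vs WT_FP, where 12 genes were called higher, 7 were higher with no low-value filter and with median-of-ratios scaling, and 2 with only the groups compared (4.81%, 6.71% and 3.82% of all genes, against 8.71%). Leaving out each library gave 0 to 10 higher. Both drug comparisons and the interaction gave 0 in each alternative. The cause of these moves was not tested. Where a library is left out, the lone sample of its group is assumed to vary like the other groups.

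Same-numbered libraries did not deviate together in every pair of groups, with correlations of deviations from -0.56 to 0.53, so the numbers are not taken to pair the samples. A replicate block gave 2 genes higher in PKD_DMSO vs WT_DMSO and 6 in PKD_FP vs WT_FP, with 9.99% and 4.52% of all genes called higher, and a crossed replicate block gave 2 in PKD_DMSO vs WT_DMSO, with 8.9%. With 2 libraries per group the precision rests on few samples, and genes near 1 FPKM, such as Brca1, Pole, Pola1 and E2f2, rest on few reads.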
